A study of Mus musculus with 4 samples.

Results

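The potassium channel genes of the mouse were followed in cerebrums of postnatal pups whose endothelium lacked Mfsd2a, the transporter that carries lysophosphatidylcholine with docosahexaenoic acid across the blood-brain barrier. A gene was taken as a member when a probe set carried exactly 1 gene symbol, that symbol began with Kcn, and the mean signal of its brightest probe set over the 4 arrays was at least 50. Kcnj8 and Kcne2 were left out. Of 82 such genes on the array, represented by 165 probe sets, 64 reached the minimum, out of 12426 genes that reached it in all. Kcnab3 at 52.6 and Kcnk7 at 55.8 lay just inside the minimum, and Kcnj5 at 43.2, Kcnq1 at 41.5 and Kcnk15 at 41.1 lay just outside.

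RNA of 5 to 6 cerebral hemispheres was pooled for each condition and hybridised to 1 Affymetrix array, so no condition had a replicate and no difference below has a test or a p-value. 2aECKO pups (Mfsd2afl/fl with Tie2-cre, active in endothelial and in blood-forming cells) and 2afl/fl controls were taken at postnatal day 9. 2aiECKO pups (Mfsd2afl/fl with the tamoxifen-inducible, endothelial Cdh5ERT2-cre) and 2afl/fl 4-OHT controls (the floxed allele without Cre) were taken at postnatal day 8, and per the study's methods the active tamoxifen metabolite 4-OHT was injected from birth to induce the deletion, so it is common to this pair and absent from the day 9 pair. All 4 conditions thus carried the floxed allele. The source field of the 2aiECKO array reads 2aECKO, and its title and genotype were followed. A gene was called higher when its knockout signal was at least 50 and at least 1.25 times the control signal, and lower when its control signal was at least 50 and the ratio was at most 0.8. These folds correspond to 0.32 on the log2 scale.

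Potassium channels set the resting potential of neurons and glia and end the action potential. Voltage-gated channels (Kcna to Kcnh, Kcnq) open on depolarisation, calcium- and sodium-activated channels (Kcnm, Kcnn, Kcnt) couple firing to ion entry, inward rectifiers (Kcnj) and tandem-pore leak channels (Kcnk) hold the cell near rest, and accessory subunits change the gating or the delivery of the pore proteins. Many of these genes increase in the rodent brain over the weeks after birth, as neurons acquire mature firing. Whole cerebrum was measured, so fewer cells of a type and less RNA per cell cannot be told apart.

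Against their own controls, both knockouts had a median of the channel genes slightly below that of all genes. In 2aECKO over 2afl/fl the median log2 fold of the 64 members was -0.12, against -0.01 over all 12426 genes, and 49 members (76.6%) were below 0, against 51.5% of all genes. In 2aiECKO over 2afl/fl 4-OHT the median was -0.06, against 0.00 over all genes, and 39 members (60.9%) were below 0, against 50.9%. A further 5 of the 64 members had exactly the same value on both arrays of the second pair, as did 330 of the 12426 genes. Over all probe sets, dim ones included, the share was 6.32%. The log2 folds of all genes had a robust SD of 0.12 in the day 9 pair and of 0.10 in the day 8 pair. Those of the members had 0.18 and 0.12. The members' median was about as far from 0 as the SD of all genes in the day 9 pair, and nearer to 0 in the day 8 pair. That SD is the spread of single genes, so it does not show how much a median over 64 genes would vary.

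Calls were few. In 2aECKO, 7 members were lower (10.9%), where 1.44% of all genes were called lower, and 2 were higher (3.12%), where 2.04% of all genes were called higher. In 2aiECKO, 2 members were lower (3.12%), where the share over all genes was 0.523%, and 0 were higher, where it was 1.77%. Of the 10 genes called in either comparison 8 encode channel proteins and 2 are noncoding RNAs named after a channel gene. The values were not independent of the choice of control: with the control of the other model in place of its own, after all 4 arrays had been quantile-normalized together, 13 members were lower and 4 higher in 2aECKO, and 17 were lower and 2 higher in 2aiECKO. The shares of all genes called under that setting were 16.2% lower and 8.03% higher in 2aECKO, and 9.17% and 15.2% in 2aiECKO. There the members' median in 2aECKO lay 0.05 above that of all genes, turning the direction, and in 2aiECKO it was at -0.16 relative to all genes. Kcnc2, Kcnh3, Kcnj9 and Kcne1l turned direction in 2aECKO as well.

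**Figure D1:**
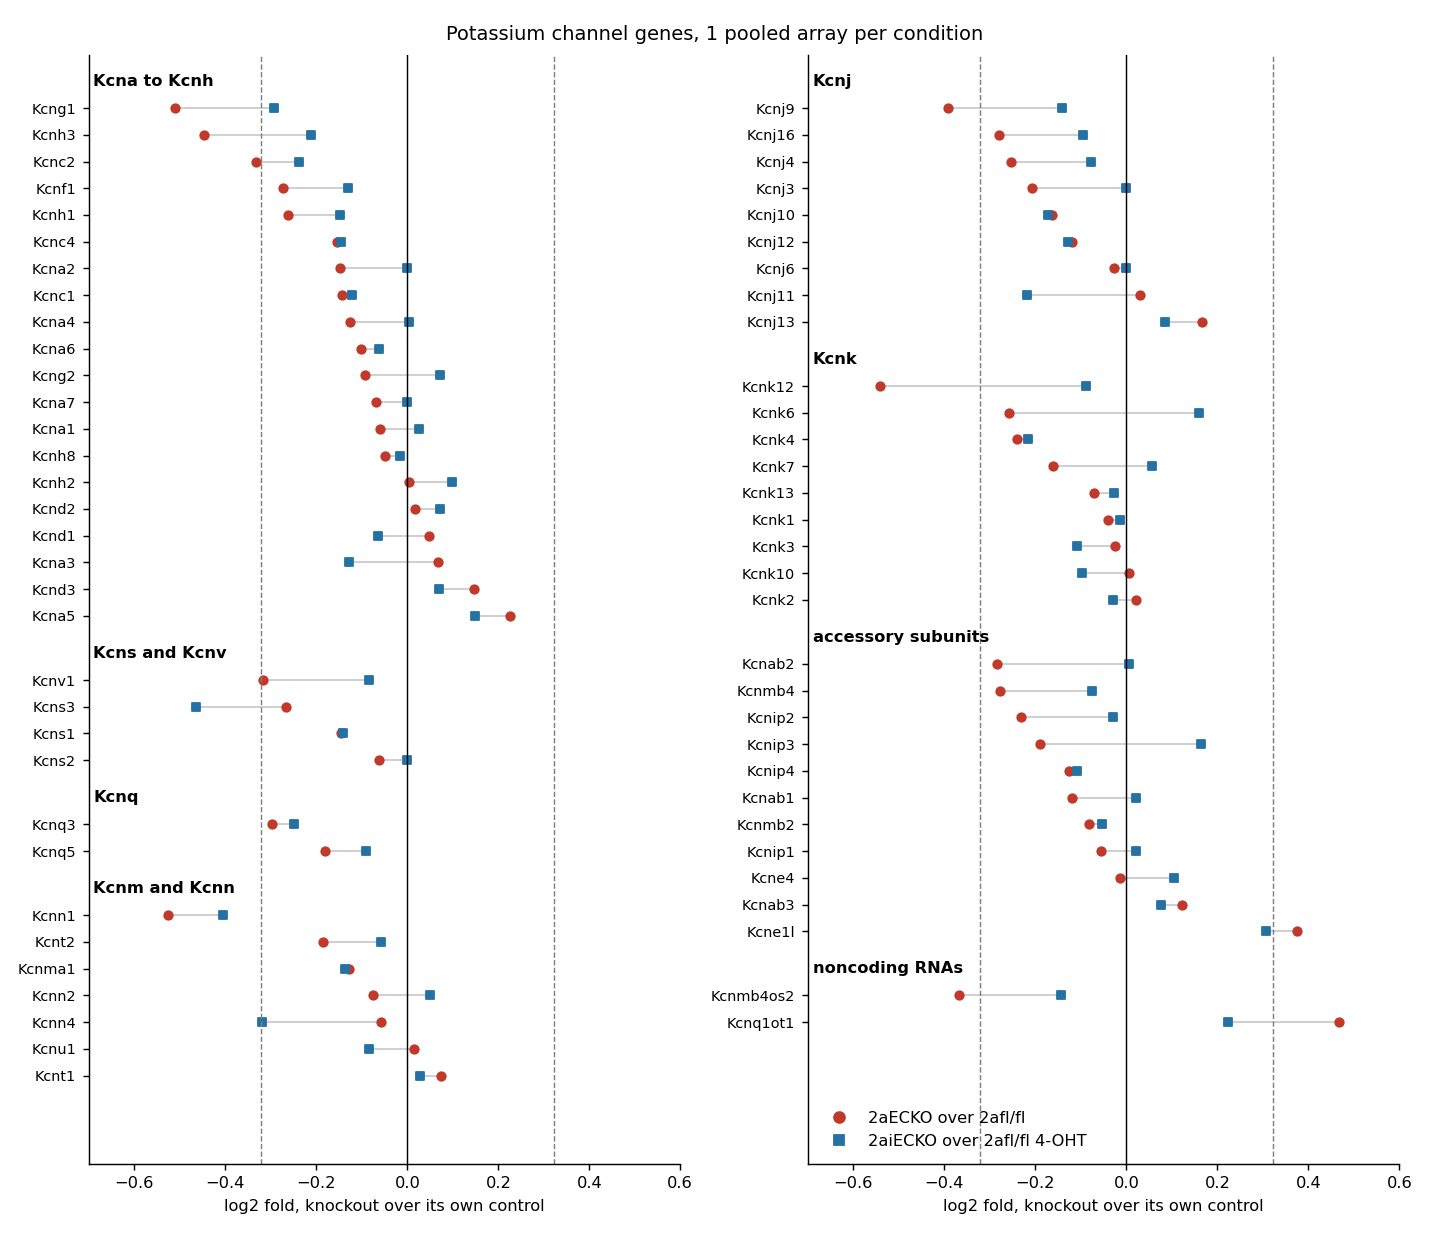
Log2 fold of each of the 64 channel genes, by channel group, in 2aECKO over 2afl/fl (circles) and in 2aiECKO over 2afl/fl 4-OHT (squares), 1 pooled array per condition. A dashed line stands at a 1.25-fold difference in either direction; most points lie between them and left of 0, and Kcnn1 is the gene with both points past the left line.

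Kcnn1 was called lower in both comparisons and no other member was called in both. It encodes a small-conductance calcium-activated channel, a type that opens on calcium entry and contributes to the hyperpolarisation after a spike. At day 9 the 2afl/fl control had a signal of 219 and 2aECKO of 152, and at day 8 the 2afl/fl 4-OHT control had 183 and 2aiECKO 138, giving log2 folds of -0.53 and -0.41. Its second probe set gave 174 and 125, and 121 and 107, or -0.48 and -0.17. Both probe sets were thus lower in both knockouts, but the second stayed within 1.25-fold in 2aiECKO, and the mean of both probe sets there was -0.29.

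The promoters of Kcnn1 are shown because it was lower in both comparisons, and that of Kcne1l because it had the largest smaller fold among the members above 0 in both. Each runs from 250 bases before to 50 bases after the start of a RefSeq transcript in GRCm38.p6, on the minus strand, at chr8:70856959-70857258 and chr8:70863209-70863508 for Kcnn1 and at chrX:142306149-142306448 for Kcne1l. The capitals mark GGGCGG, the GC box bound by Sp1, or TCACNCCAC, a form of the sterol regulatory element bound by the Srebp factors, on either strand.
Kcnn1 downstream start: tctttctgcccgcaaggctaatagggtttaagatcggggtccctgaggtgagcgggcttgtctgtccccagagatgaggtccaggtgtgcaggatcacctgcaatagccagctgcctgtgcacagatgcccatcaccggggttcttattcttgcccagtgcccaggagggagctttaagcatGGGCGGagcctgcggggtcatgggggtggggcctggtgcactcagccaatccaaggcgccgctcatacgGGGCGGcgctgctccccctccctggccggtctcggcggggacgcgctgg
Kcnn1 upstream start: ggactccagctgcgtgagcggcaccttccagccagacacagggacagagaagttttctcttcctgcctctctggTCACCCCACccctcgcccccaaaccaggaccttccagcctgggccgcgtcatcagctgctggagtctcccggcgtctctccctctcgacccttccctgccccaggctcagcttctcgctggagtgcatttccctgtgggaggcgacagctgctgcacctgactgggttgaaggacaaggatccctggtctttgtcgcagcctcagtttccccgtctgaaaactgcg
Kcne1l: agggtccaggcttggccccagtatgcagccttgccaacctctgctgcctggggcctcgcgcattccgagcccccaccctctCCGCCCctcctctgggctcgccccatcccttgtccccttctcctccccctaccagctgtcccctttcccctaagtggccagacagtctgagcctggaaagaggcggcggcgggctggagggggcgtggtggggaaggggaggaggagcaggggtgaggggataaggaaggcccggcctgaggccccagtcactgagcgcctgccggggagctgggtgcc

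Promoters of 49 members, 72 in all, were matched. GGGCGG was present in 48.6% of the 72 and in 35.7% of all 32851 promoters of that length. TCACNCCAC was present in 2 of the 72 (2.78%), those of Kcnn1 and Kcnf1, and in 1.24% of all. The E-box CACGTG was present in 5.56% of the members' promoters and 7.15% of all. TGACGTCA, the cAMP response element, and TTCAGCACC, the left part of the REST element, matched 0 of the 72, and 1.79% and 0.371% of all promoters. The members' promoters were richer in CpG, with a median of 9 per promoter against 7, and a median GC content of 59.0% against 52.7%. These are letter matches in a short window, and none shows that a factor binds there.

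Among the voltage-gated pore genes Kcna to Kcnh, 20 of 23 reached the minimum and 14 were below 0 in 2aECKO, with a median of -0.10. In 2aiECKO 11 were below 0 and the median was -0.04. Kcng1, Kcnh3 and Kcnc2 were called lower in 2aECKO and none in 2aiECKO. Kcng1, a silent subunit that alters channels of the Kv2 type by joining them, gave 341 and 239 in the day 9 pair and 199.7 and 163 in the day 8 pair, log2 folds of -0.51 and -0.29. It was measured by 1 probe set of sufficient signal. Kcnh3, a forebrain channel of the ether-a-go-go family, gave 299 and 219, and 141 and 122, which are -0.45 and -0.21. Its probe set is of a design that can bind related transcripts. The others of sufficient signal were at -0.32 and -0.07 in the day 9 pair and at -0.12 and 0.02 in the day 8 pair, so the call of Kcnh3 rested on that probe set. Kcnc2, a fast Kv3 channel of fast-spiking interneurons, gave 731 and 580.2, and 428 and 363, which are -0.33 and -0.24.

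The other Kv3 genes were nearer to 0 by their brightest probe sets. Kcnc1 was at -0.14 and -0.12, but its 4 probe sets of sufficient signal lay between -0.14 and 0.16 in 2aECKO, and Kcnc4 was at -0.15 in both comparisons. The Kv1 genes of axons, Kcna1 and Kcna2, were at -0.06 and -0.15 in 2aECKO and at 0.03 and 0.00 in 2aiECKO, but the second probe set of Kcna2 was at -0.23 and, with 196 and 155 in the day 8 pair, at -0.34. The Kv4 genes, which carry the transient current of dendrites, were at or above 0 in 2aECKO by their brightest probe sets, with Kcnd2 at 0.02, Kcnd1 at 0.05 and Kcnd3 at 0.15, and in 2aiECKO Kcnd2 and Kcnd3 were both at 0.07 and Kcnd1 at -0.07. With the mean of all probe sets Kcnd2 was at -0.05, Kcnd1 at -0.03 and Kcnd3 at 0.00 in 2aECKO, so the side of 0 depended on the probe set. Kcna5, found in vascular smooth muscle and glia among other cells, had the highest fold of this group in both comparisons, with 128 and 149.9 in the day 9 pair and 88.0 and 97.5 in the day 8 pair, 0.23 and 0.15. Kcnh1 was at -0.26 and -0.15, and the silent subunit Kcnf1 at -0.27 and -0.13, with a second probe set at -0.51 and 0.04. Kcnh7, an erg channel, lay below the minimum by its mean over the 4 arrays but passed the ratio in 2aECKO, with 68.0 and 48.9.

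The silent subunits Kcns and Kcnv form no channel alone and modify Kv2 channels. All 4 that reached the minimum were below 0 in 2aECKO, with a median of -0.21, and 3 of 4 in 2aiECKO, with -0.11. Kcns3, which in cortex is enriched in parvalbumin interneurons, gave 92.0 and 76.4 in the day 9 pair and 72.6 and 52.7 in the day 8 pair, or -0.27 and -0.46. It was the lowest member in 2aiECKO and was called there only. Its dimmer probe set gave -0.33 and -0.27. Kcnv1 gave 467 and 375, and 421 and 397, and at -0.32 it missed the call in 2aECKO narrowly, while its other probe sets gave -0.35 and -0.38. It was at -0.08 in 2aiECKO.

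Of the Kcnq genes, which carry the M-current that restrains repetitive firing, 2 of 3 reached the minimum. Kcnq3 gave 1522 and 1239, and 984 and 828, which are -0.30 and -0.25, both short of the call. Its dimmer probe set gave 150.5 and 86.6, and 86.9 and 77.6, which are -0.80 and -0.16. Kcnq5 was at -0.18 and -0.09, and its dimmer probe set at -0.51 and -0.21. These 4 probe sets of sufficient signal were below 0 in both comparisons, while the dimmest of Kcnq5, under the minimum, was at 0.14 and -0.23.

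**Figure D2:**
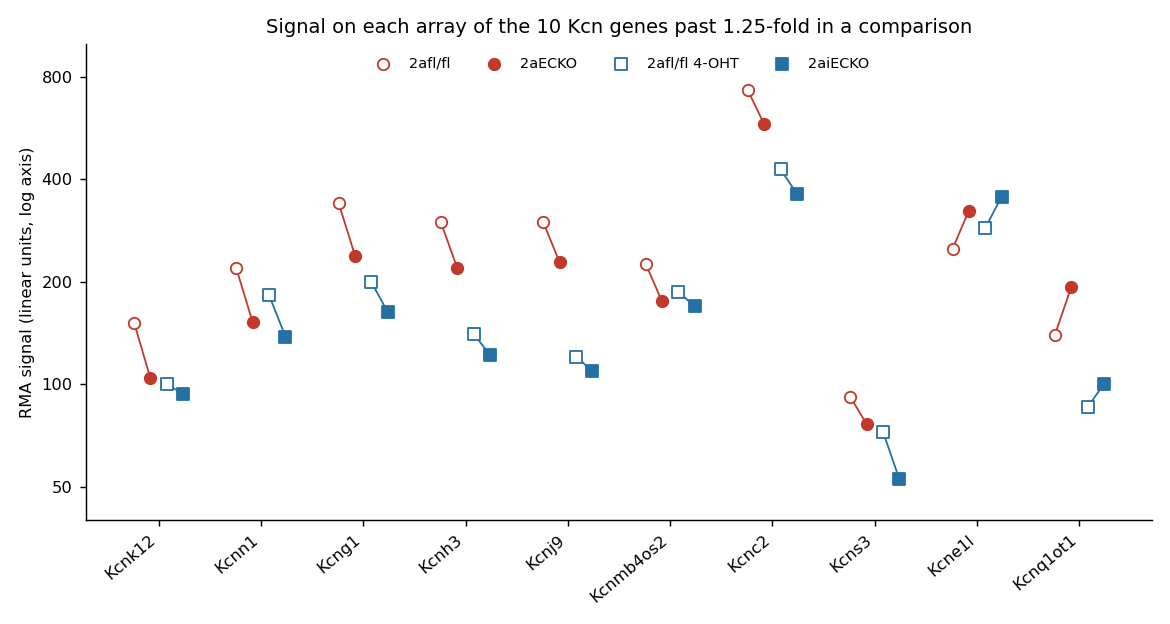
Signal on each of the 4 arrays (log axis) of the 10 genes called in either comparison, with a line joining each control to its knockout. Both lines of Kcne1l and Kcnq1ot1 slope up, and both lines of every other gene shown, Kcnn1 among them, slope down. The pairs are on different scales, so signals should be read within a pair.

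The group of the calcium- and sodium-activated channels (7 of 8 above the minimum) had medians of -0.08 in both comparisons. Kcnu1, placed in it by its symbol only, was at 0.01 and -0.08. Beside Kcnn1, none was called. Kcnn4, the intermediate-conductance channel of microglia and blood cells, gave 94.6 and 90.9 in the day 9 pair and 70.5 and 56.5 in the day 8 pair, -0.06 and -0.32, the second just short of the call. Kcnn2 was at -0.08 and 0.05. Kcnn3 lay below the minimum by its mean but passed the ratio in 2aECKO with 50.2 and 39.8. Kcnma1, the large-conductance BK channel, was at -0.13 and -0.14 by its brightest probe set. Its probe sets differed in sign: 3 of the 4 of sufficient signal were below 0 in both comparisons, down to -0.36, and the other went from 84.8 to 116 and from 27.6 to 34.9, which are 0.45 and 0.34. Whether these probe sets read different transcript ends was not tested. Kcnt1 was at 0.07 and 0.03.

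Among the inward rectifiers Kcnj, 9 of 14 reached the minimum, with 7 below 0 in 2aECKO (median -0.16) and 6 in 2aiECKO (median -0.10). Kcnj9, a subunit of the GIRK channels that neurotransmitters open through G proteins, gave 299 and 228, and 121 and 109, or -0.39 and -0.14. Its other probe sets of sufficient signal were at -0.34 and -0.61 in the day 9 pair and at -0.16 and -0.15 in the day 8 pair, so all of them were below 0. The other GIRK subunits did not reach the call. Kcnj3 went from 605 to 523 in 2aECKO (-0.21) with all 3 of its probe sets of sufficient signal between -0.27 and -0.21, and it had the same value, 429, on both arrays of the day 8 pair. Kcnj6 was at -0.03 and 0.00.

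Kcnj10, the glial Kir4.1 channel through which astrocytes take up potassium, gave 801 and 714, and 435 and 386, which are -0.16 and -0.17. Its partner Kcnj16 gave 126 and 104, and 113 and 105, or -0.28 and -0.10, and the second probe set of Kcnj16 gave -0.18 and 0.08. Both genes were thus below 0 by their brightest probe sets while the astrocyte markers were above it. Over 10 markers the median was 0.15 in 2aECKO and 0.27 in 2aiECKO, with 9 and 10 above 0, and Gfap, the filament protein of reactive astrocytes, went from 326 to 604 and from 264 to 493, which are 0.89 and 0.90. The summed signal of the 10 markers was 26058 and 29318 in the day 9 pair, and 18177 and 21651 in the day 8 pair. Kcnj13, a channel of the choroid plexus epithelium, was above 0 in both, with 108 and 122, and 82.5 and 87.5, or 0.17 and 0.08. All 5 choroid plexus markers were above 0 in both comparisons, with medians of 0.27 and 0.17. The summed signal of the 6 such markers on the array, with Kl below the minimum among them, was 12913 and 14901, and 10654 and 12008. Most of it came from Ttr, at 12500 and 14391, and 10292 and 11583. The part of such tissue in the value of Kcnj13 was not tested.

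The tandem-pore leak channels Kcnk (9 of 12 above the minimum) had medians of -0.07 and -0.03, with 7 of the 9 below 0 in each comparison. Kcnk12, a member for which little current has been recorded when it is expressed alone, was the lowest member of all in 2aECKO, with 152 and 104, a log2 fold of -0.54. In the day 8 pair it gave 99.9 and 93.9, or -0.09. It was measured by 1 probe set. The best known leak channels lay near 0, with Kcnk1 at -0.04 and -0.02, Kcnk2 at 0.02 and -0.03, and Kcnk3 at -0.03 and -0.11. Kcnk13, the leak channel of microglia, was at -0.07 and -0.03. The microglial markers beside it had medians of 0.05 and 0.44, with 2 of 8, Tmem119 at -0.46 and P2ry12 at -0.36, called lower in 2aECKO and 6 of 8 called higher in 2aiECKO. The summed signal of the 9 microglial markers on the array, with Itgam below the minimum among them, was 4082 and 4284 in the day 9 pair. In the day 8 pair it was 3613 and 5164. Kcnk4 was below 0 in both comparisons, at -0.24 and -0.22. Kcnk6 lay on opposite sides of 0, at -0.26 and 0.16, on signals of 61.0 to 81.9.

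Accessory subunits were the group in which the comparisons differed in sign: 9 of 11 were below 0 in 2aECKO, with a median of -0.12, and 4 of 11 in 2aiECKO, with 0.02. Kcne1l, a small membrane protein of the Kcne family, was the only protein-coding member called higher. It gave 249.9 and 324 in the day 9 pair and 288 and 356 in the day 8 pair, or 0.37 and 0.31, the second just short of the call. Kcnab2, a cytoplasmic beta subunit that steers Kv1 channels to the axon, gave 402 and 330.4 in the day 9 pair, -0.28, and 204 and 205 in the day 8 pair, 0.00. Kcnip3, a calcium sensor that binds Kv4 channels and also acts on DNA, gave 443 and 389, and 245 and 274, or -0.19 and 0.16, and its second probe set gave -0.23 and -0.03. Kcnip2 was at -0.23 and -0.03, Kcnip4 at -0.13 and -0.11, and Kcnip1 at -0.06 and 0.02. Kcnmb4, the neuronal beta subunit of the BK channel, gave 1337 and 1103, and 1073 and 1018, which are -0.28 and -0.08.

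The 2 noncoding RNAs lay on opposite sides of 0 in both comparisons. Kcnq1ot1, the RNA transcribed antisense to Kcnq1 from the imprinted domain, was the highest member in 2aECKO, with 139.6 and 193, or 0.47, and in the day 8 pair it gave 85.7 and 100.1, or 0.22. All 6 of its probe sets were above 0 in 2aECKO, between 0.21 and 0.55, whereas in 2aiECKO they lay between -0.15 and 0.22. Kcnmb4os2, an opposite-strand transcript of the Kcnmb4 locus, gave 226 and 175, and 187 and 169, or -0.37 and -0.14. Kcnmb4 itself was below 0 in both comparisons as well. With both RNAs left out, the 62 protein-coding members had the same medians, -0.12 and -0.06, with 6 lower and 1 higher in 2aECKO.

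**Figure D3:**
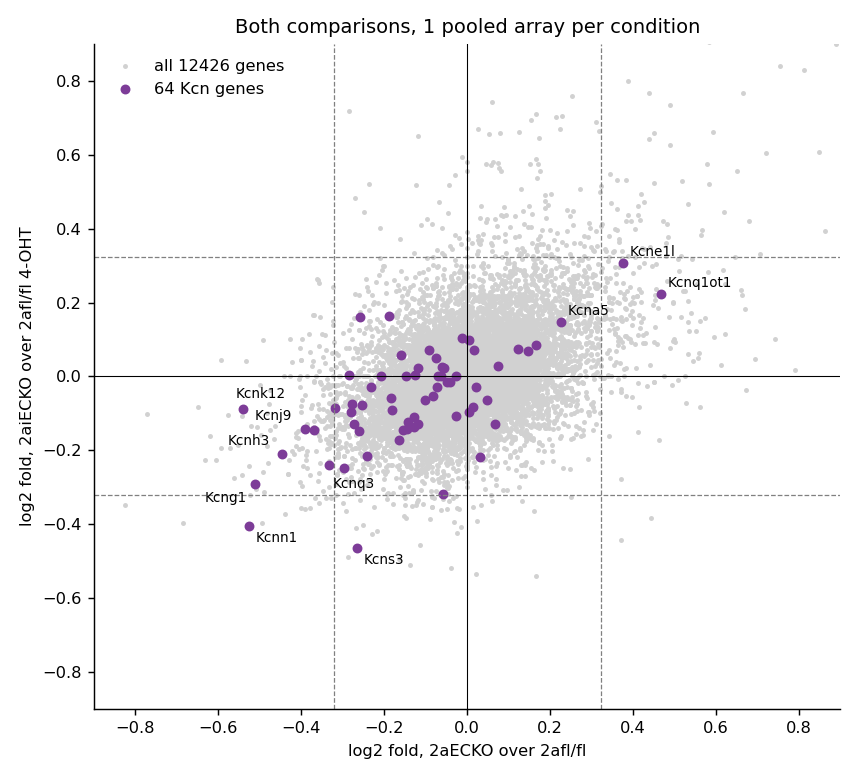
Log2 fold of every gene in 2aECKO (horizontal) against 2aiECKO (vertical), 1 pooled array per condition, with the 64 channel genes marked. Of these, 33 lie below 0 on both axes and 9 above 0 on both; 11 genes, none of them a channel gene, fall outside the axes at 0.9.

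The 2 comparisons share no array, and their log2 folds ran together over the members. Over the 64 members Pearson's r was 0.63 and Spearman's rho 0.54, and over all genes 0.43 and 0.40. These are descriptions across genes of the same 4 arrays, and genes are not independent replicates. A log2 fold below 0 in both comparisons was found in 33 members (51.6%), against 32.7% of all genes, and above 0 in both in 9 members (14.1%), against 28.2%. The fold was more negative in 2aECKO than in 2aiECKO for 45 members (70.3%), against 51.3% of all genes, with a median difference of -0.06. Whether the larger displacement in 2aECKO belongs to the Cre line, the age, the 4-OHT or the arrays cannot be told apart, since the models differ in all of them.

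**Figure D4:**
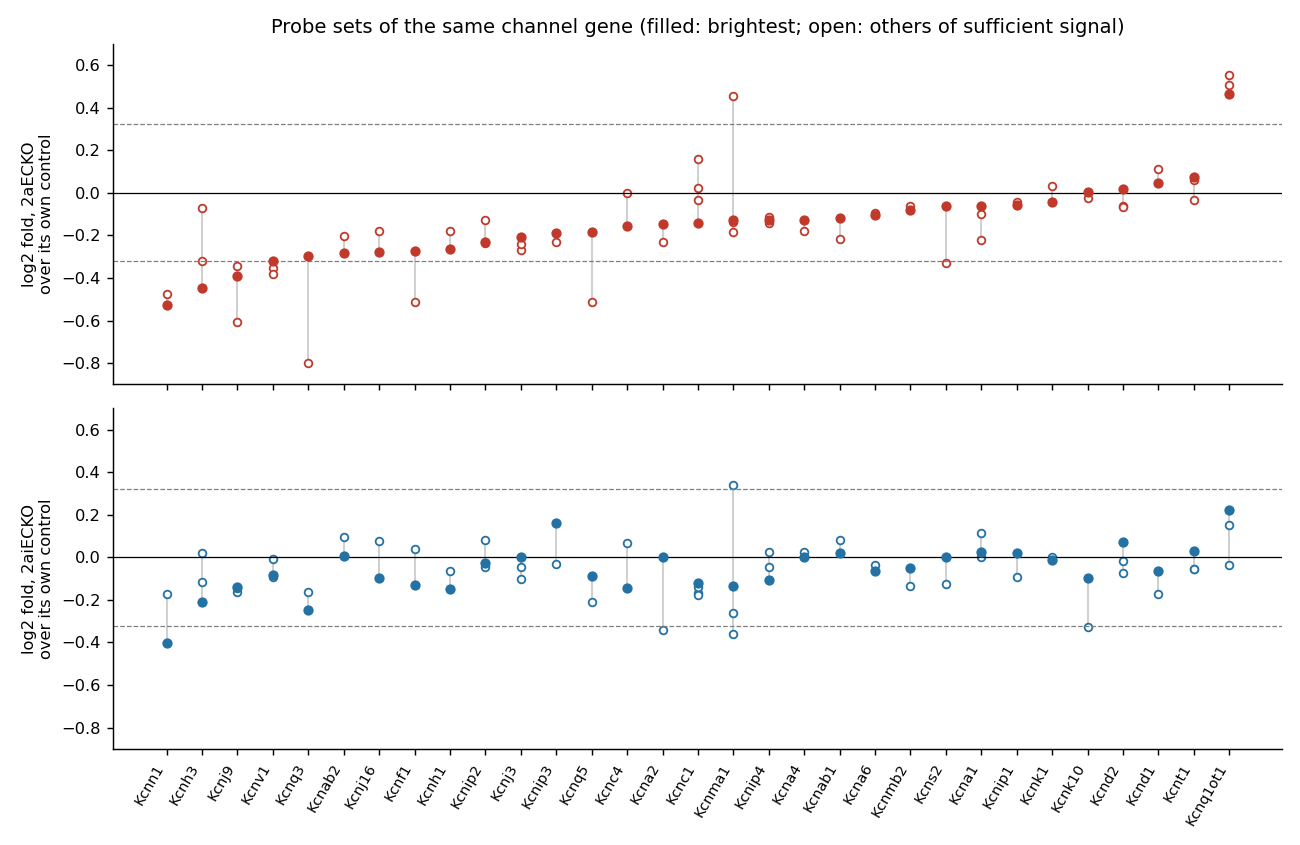
Log2 folds of every probe set of sufficient signal for the channel genes that have several, in 2aECKO and in 2aiECKO, with the brightest filled. In 26 of 31 genes the brightest pair shares a sign in 2aECKO and in 20 of 31 in 2aiECKO, and Kcnma1 has the widest spread in both.

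With 1 array per condition, the agreement of probe sets for the same transcript is the available measure of a part of the technical spread. In the 31 members with several probe sets of sufficient signal, the log2 folds of the brightest pair differed with a robust SD of 0.10 in 2aECKO and 0.15 in 2aiECKO, against 0.11 in both comparisons over 5611 genes. They shared a sign in 26 members in 2aECKO (83.9%, against 67.7% of all genes) and in 20 in 2aiECKO (64.5%, against 62.0%). A pair in which a probe set had equal values in knockout and control was counted as not sharing a sign. These were Kcnc4 in 2aECKO and Kcna2, Kcnj3, Kcns2 and Kcnk1 in 2aiECKO. Probe sets of a gene read the same pooled RNA on the same arrays, so this spread includes neither that between animals nor that between labellings or arrays. Among the called genes Kcng1, Kcnk12, Kcnc2, Kcns3, Kcne1l and Kcnmb4os2 have no second probe set of sufficient signal.

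**Figure D5:**
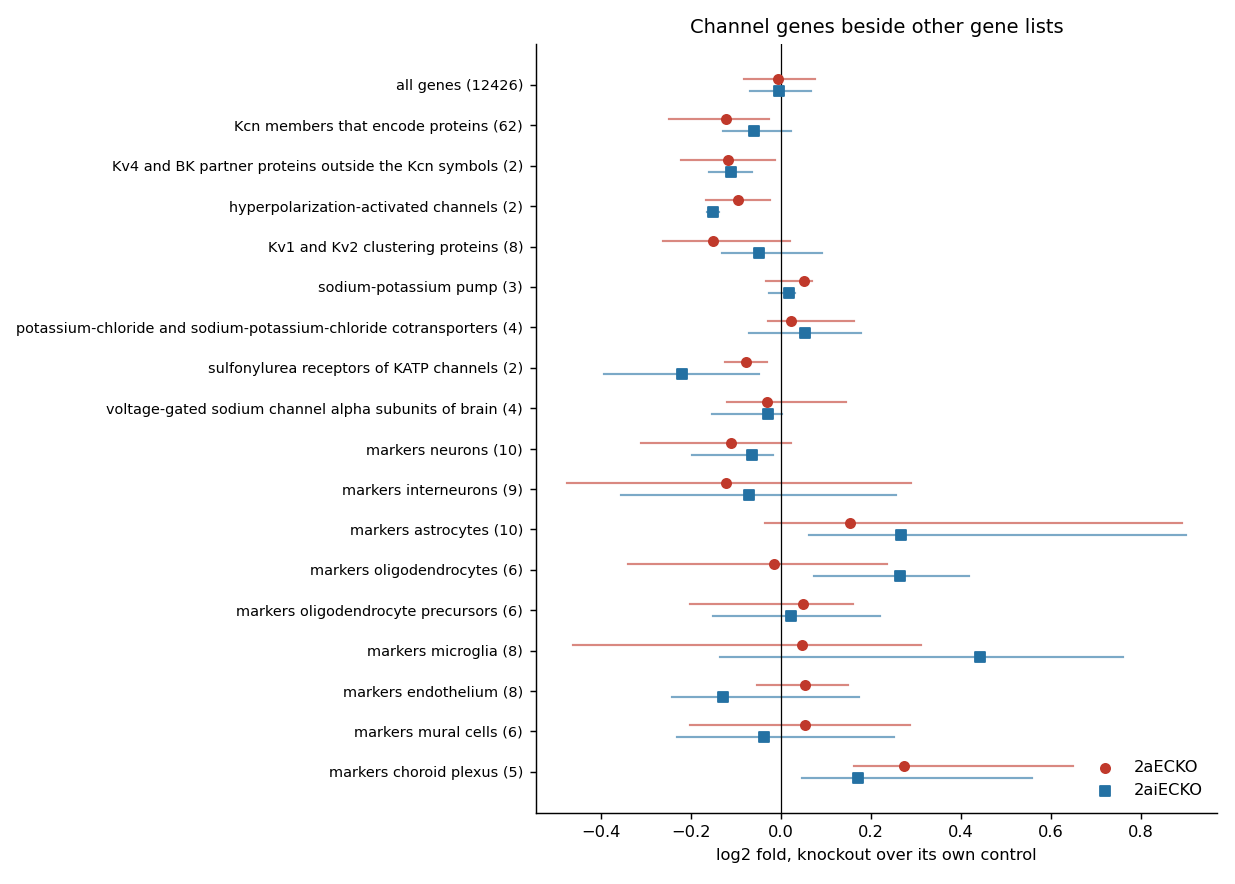
Median log2 fold (marker) of the 62 protein-coding channel genes and of other gene lists in both comparisons, 1 pooled array per condition; lines give the range of the genes in a list, and quartiles in the top 2 rows. Neuronal markers lie left of 0 as the channel genes do, at -0.11 and -0.06, and astrocyte markers lie right of it.

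Markers of neurons lay close to the channel genes. Their median was -0.11 in 2aECKO and -0.06 in 2aiECKO, with 9 and 10 of 10 below 0 and 0 called, and their summed signal was 55792 and 52659 in the day 9 pair and 44389 and 42541 in the day 8 pair. The part of the neuronal share of RNA in the channel values was not tested. Among 9 interneuron markers the medians were -0.12 and -0.07, with 6 below 0 in each comparison. The GABA-synthesising enzymes Gad1 and Gad2 were near 0, at 0.03 and 0.06 in 2aECKO and at -0.01 and 0.04 in 2aiECKO. Calb2, another calcium buffer, was above 0 at 0.29 and 0.11, and the neuropeptide gene Vip was at -0.22 and 0.26. Pvalb, the calcium buffer of the fast-spiking interneurons that use Kcnc2 and Kcns3, went from 141 to 102 (-0.48) and from 88.7 to 84.2 (-0.08). Lhx6, a transcription factor of the same lineage, went from 241 to 186 (-0.38) and from 225 to 175 (-0.36).

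Other genes that handle potassium or partner its channels stayed within 1.25-fold apart from a sulfonylurea receptor. Of 6 sodium-potassium pump genes listed, only the 3 beta subunits Atp1b1, Atp1b2 and Atp1b3 were measured, with medians of 0.05 and 0.02. The 4 cation-chloride cotransporters had medians of 0.02 and 0.05. The 4 sodium channel alpha subunits of brain, which open the action potential that potassium channels end, had a median of -0.03 in both comparisons. Proteins that cluster Kv1 and Kv2 channels (8 genes) had medians of -0.15 and -0.05, with 5 below 0 in each and Amigo1, an auxiliary protein of Kv2 channels, lowest at -0.26 and -0.13. The Kv4 partners Dpp6 and Dpp10 were at -0.01 and -0.22 in 2aECKO and at -0.07 and -0.16 in 2aiECKO. The pacemaker channels Hcn2 and Hcn3 were at -0.17 and -0.03, and at -0.17 and -0.14. Abcc9, a sulfonylurea receptor of pericytes and smooth muscle that pairs with KATP channels, went from 244 to 239 (-0.03) and from 191 to 145.5 (-0.39), the only call among these potassium and partner genes. The 8 endothelial markers had medians of 0.05 and -0.13 and the 6 mural markers 0.05 and -0.04. Oligodendrocyte markers (6) had medians of -0.02 and 0.26, and those of their precursors (6) 0.05 and 0.02.

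The deleted gene and the scaling were checked on the same arrays. Mfsd2a had a signal of 423 in the day 9 control and 410.2 in its knockout, and of 369 in the day 8 control and 299 in its knockout. Whether its probe set lies within the deleted part was not tested, and other cells of the cerebrum may contribute to it. The median signal was 74.1 and 75.5 in the day 9 pair and 48.7 and 49.2 in the day 8 pair, so the pairs were on different scales.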

How the data were processed

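Biotin-labelled RNA from 4 pools of cerebrum was measured on Affymetrix mouse arrays. RMA was used by the authors, with background adjustment and then quantile normalization, and the intensity they deposited is linear, not logged. The methods name the affy package in R and the submitters' processing notes name Partek 6.6, and the values do not settle which was used.

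Folds were computed here on log2 values. Of the 45101 probe sets on the array, 34958 carry 1 symbol in the platform annotation, 932 several and 9211 none used here. A gene was represented by its brightest probe set by the mean log2 value over all arrays, and genes under a mean signal of 50 were left out. Symbols and promoters came from RefSeq tables of GRCm38.p6. Some channel genes are not reported here. The members, the gene lists and the textbook channels were chosen with earlier results of these data known. Genes named were those called in either comparison, the extremes of each group, the 5 largest smaller folds in each direction, a list of textbook channels and genes whose probe sets differ in sign. Further members and list genes were named after their values were seen. The robust SD is the scaled median absolute deviation.

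No test was run with 1 array per group, whose number limits the precision. The counting of calls was tested on simulated data, which says nothing of replicate spread. The alternatives tried were averaging the probe sets of a gene, leaving out less specific probe sets, removing a loess trend (fraction 0.3), centring the median, quantile normalization over all 4 arrays, a minimum of 100 or none, a fold of 1.5, and other controls. Python 3.11.15, numpy 2.4.6, pandas 2.3.3, scipy 1.17.1, statsmodels 0.14.6 and matplotlib 3.10.9 were used.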

Additional observations from a re-analysis of the deposited data

How the results depend on the processing

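Within each knockout and its own control, the median of all members and the medians of the groups with over 2 genes moved by less than the spread of the folds when the loess trend was removed, the median was centred, all 4 arrays were quantile-normalized together, less specific probe sets were left out or the minimum was changed. That spread is of single genes and is as large as many of the medians, so it is a loose limit. Relative to all genes, the members' median lay between -0.13 and -0.10 in 2aECKO under these settings. In 2aiECKO it lay between -0.064 and -0.056. The call of Kcnc2 in 2aECKO was lost under quantile normalization, that of Kcnh3 in 2aECKO with the mean of all probe sets or without less specific ones, and that of Kcnn1 in 2aiECKO with the mean of all probe sets. Kcng1 and Kcnq1ot1 fell under the minimum signal with the mean of all probe sets, so they had no call there. Kcns3 likewise had none at a minimum of 100. With the mean of all probe sets 8 members were lower and 1 higher in 2aECKO, against 1.16% and 1.73% of all genes. Kcnf1, Kcnq3 and Kcnv1 were among the lower ones. In 2aiECKO 1 was lower, against 0.347% of all genes. The Kcnq median was then -0.37 in 2aECKO, and the noncoding medians, of Kcnmb4os2 alone, were -0.37 and -0.14. With a minimum of 100, 1 member was lower in 2aiECKO, against 0.328% of all genes. With none the noncoding median was -0.13 in 2aECKO. Without noncoding RNAs 1 was higher in 2aECKO, against 2.04% of all genes. At 1.5-fold 0 were higher and 0 lower in 2aECKO, and 0 lower in 2aiECKO. The shares of all genes at that fold were also small, with 0.249% higher and 0.0724% lower in 2aECKO and 0.0161% lower in 2aiECKO.

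Other controls changed the results more. The pairs were deposited on different scales, so that with the other model's control as deposited the median of all genes was 0.30 in 2aECKO and -0.31 in 2aiECKO. There 47.4% of all genes were called higher in 2aECKO and 47.6% lower in 2aiECKO. On that footing 35 members were higher and 0 lower in 2aECKO, with a median of 0.36. The group medians were 0.42 (Kcna to Kcnh), 0.085 (Kcns and Kcnv), 0.39 (Kcnq), 0.49 (Kcnm and Kcnn), 0.33 (Kcnj), 0.31 (Kcnk), 0.31 (accessory) and 0.54 (noncoding). Kcnc2 at 0.44, Kcng1 at 0.26, Kcnh3 at 0.64, Kcnj9 at 0.92 and Kcnk12 at 0.063 were then above 0. Of these, Kcng1 and Kcnk12 still lay below the median of all genes. In 2aiECKO 1 was higher and 49 lower, with a median of -0.52 and, in the same order, group medians of -0.59, -0.31, -0.80, -0.67, -0.57, -0.48, -0.41 and -0.45. Against the mean of both controls, 16.4% of all genes were higher in 2aECKO, at a median of 0.15. In 2aiECKO 16.4% were lower, at a median of -0.15. There 7 members were higher and 1 lower in 2aECKO, with a median of 0.14. The group medians were, in the same order, 0.15, -0.060, 0.073, 0.22, 0.10, 0.15, 0.21 and 0.29. Kcnc2 at 0.053, Kcnh3 at 0.10 and Kcnj9 at 0.26 were above 0, but of these only Kcnj9 lay above the median of all genes. In 2aiECKO 1 was higher and 26 lower, with a median of -0.27 and medians of -0.30 (Kcna to Kcnh), -0.48 (Kcnq), -0.46 (Kcnm and Kcnn), -0.35 (Kcnj), -0.25 (Kcnk), -0.23 (accessory) and -0.20 (noncoding). With the other control after quantile normalization over all 4 arrays, 4 were higher and 13 lower in 2aECKO, and 2 higher and 17 lower in 2aiECKO. That alternative was chosen after seeing the data. In 2aECKO Kcnc2 at 0.13, Kcne1l at -0.18, Kcnh3 at 0.22 and Kcnj9 at 0.48 turned direction. Relative to all genes, the members' median was then 0.05 in 2aECKO and -0.16 in 2aiECKO. The controls differ in day and in 4-OHT, and the cause was not tested.

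No paired analysis was possible because each condition is 1 pooled array, so there was also no replicate to leave out, and the spread between animals is unknown.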

Other observations

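The controls also differed from each other in the channel genes. After quantile normalization over all 4 arrays, and relative to the median of all genes, the members' median was 0.12 higher in 2afl/fl at day 9 than in 2afl/fl 4-OHT at day 8, with 39 of 64 members above the median of all genes. Kcnj9 was 0.95 higher on this log2 scale, Kcna1 0.81, Kcnh3 0.74, Kcnab2 0.68, Kcnj10 0.63, Kcnip3 0.58 and Kcnc2 0.51. The lowest was Kcne1l at -0.51. This comparison shares the 2afl/fl array with that of 2aECKO, in which Kcnj9 was at -0.39, Kcnh3 at -0.45, Kcnab2 at -0.28 and Kcne1l at 0.37, whereas Kcna1 was at -0.06 and Kcnn1, at -0.08 between the controls, was at -0.53. Day, 4-OHT and array cannot be told apart between the controls.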
